A study of Mus musculus with 6 samples.

Results

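The genes of the CD3 complex and of the first signalling steps behind the T cell antigen receptor were followed in Ly6D-negative common lymphoid progenitors (CLPs), early bone marrow cells from which T, B and natural killer cells can arise. The members are 9 listed genes: Cd3e, Cd3g, Cd3d, Cd247, Lat, Lck, Zap70, Txk and Trat1. Of these 7 had a probe set annotated with their symbol alone, 1 probe set each, out of 22180 genes with such a probe set, and Cd247 and Lck were not analysed here. Mutant mice were OcnCre+;iDTR+/- and control mice were OcnCre-;iDTR+/-. Cre under the osteocalcin promoter switches on a diphtheria toxin receptor, so that toxin kills osteocalcin-expressing cells. Mice of both groups carried iDTR, were adults of 6 to 8 weeks and received toxin daily for 4 weeks, so toxin exposure is shared by the groups. RNA of sorted cells from 3 mutant and 3 control samples was amplified and measured on Affymetrix arrays, 1 array per sample. The labels do not say whether a sample was 1 mouse or a pool, and the p-values given here reflect the spread among these 6 samples alone, which may be technical.

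In a T cell, the antigen receptor chains bind ligand but have short tails, and the CD3 epsilon, gamma and delta proteins with the zeta chain (Cd247) carry the signal inside. The kinase LCK phosphorylates the tyrosine motifs of these tails, ZAP70 docks there and phosphorylates the adaptor LAT, and LAT gathers the enzymes of the next steps. TXK is a Tec family kinase, and TRAT1 is a transmembrane adaptor that associates with the receptor complex. CLPs stand before commitment to the T lineage, and T cell progenitors switch these genes on mainly after they enter the thymus.

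The 3 CD3 genes lie side by side on mouse chromosome 9, and their promoters are shown with that of Lat because these 4 genes had the widest spread between arrays among the tested members. The sequences come from RefSeq, build GRCm38.p6, and run from 250 bases before to 50 bases after the annotated start. In that build Cd3g spans chr9:44969572-44980431, Cd3d spans chr9:44981769-44987052 and Cd3e spans chr9:44998735-45009663. Cd3g (minus strand) and Cd3d (plus strand) point away from each other, with annotated starts 1355 bp apart, and the start of Cd3e (minus strand) lies 27825 bp from that of Cd3d. These starts are those of the promoter windows, and for Cd3d and Cd3e they are not the limits of the spans given above. The windows shown are chr9:45009562-45009861 (minus strand) for Cd3e, chr9:44980382-44980681 (minus strand) for Cd3g, chr9:44981536-44981835 (plus strand) for Cd3d and chr7:126369519-126369818 (minus strand) for Lat. The array annotation gives no probe positions, so these coordinates describe the genes and not the probes. Capitals mark matches, on either strand, to the E-box CAGNTG, to the ETS core GGAAGT and to the RUNX core TGNGGT.
Cd3e: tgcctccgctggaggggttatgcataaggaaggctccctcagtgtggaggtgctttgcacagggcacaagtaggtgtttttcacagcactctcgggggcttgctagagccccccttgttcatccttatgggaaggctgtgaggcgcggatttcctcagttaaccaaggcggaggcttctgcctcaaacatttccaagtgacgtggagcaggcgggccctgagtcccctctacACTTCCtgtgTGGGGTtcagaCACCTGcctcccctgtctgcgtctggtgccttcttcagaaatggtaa
Cd3g: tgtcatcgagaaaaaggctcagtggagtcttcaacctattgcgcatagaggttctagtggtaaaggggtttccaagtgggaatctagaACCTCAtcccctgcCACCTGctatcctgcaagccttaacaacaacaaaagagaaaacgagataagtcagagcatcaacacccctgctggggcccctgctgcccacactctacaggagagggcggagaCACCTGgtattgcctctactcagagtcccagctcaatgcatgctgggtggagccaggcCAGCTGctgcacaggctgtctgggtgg
Cd3d: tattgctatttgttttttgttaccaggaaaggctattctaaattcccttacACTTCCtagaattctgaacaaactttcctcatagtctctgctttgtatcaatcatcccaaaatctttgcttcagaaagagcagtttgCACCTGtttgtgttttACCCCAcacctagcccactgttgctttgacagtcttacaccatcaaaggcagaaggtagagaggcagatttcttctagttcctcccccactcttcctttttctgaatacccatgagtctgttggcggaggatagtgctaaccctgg
Lat: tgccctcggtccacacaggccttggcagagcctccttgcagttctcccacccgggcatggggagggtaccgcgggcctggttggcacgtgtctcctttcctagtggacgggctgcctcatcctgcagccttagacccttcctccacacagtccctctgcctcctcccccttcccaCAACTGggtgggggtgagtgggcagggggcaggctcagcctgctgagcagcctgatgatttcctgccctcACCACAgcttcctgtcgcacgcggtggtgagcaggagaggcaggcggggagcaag
The Cd3e and Cd3d windows each held 1 match to each of these motifs. The Cd3g window held 3 E-box matches and 1 RUNX match, and the Lat window held 1 of each of these, with 0 ETS matches in both. No matches overlapped. Among 32851 RefSeq promoter windows of the same length, 51.4% held the E-box, 23.8% the ETS core and 45.8% the RUNX core. A match is a description of the letters and does not show binding.

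1 array stood apart, mutant replicate 2, whose correlation with each of the other 5 over all probe sets was 0.935 to 0.954. Between those 5 it was 0.973 to 0.989. The members' results are given with and without that array. Values are log2 intensities made with RMA, which removes background, aligns the arrays' distributions and combines the probes of a probe set. RMA leaves no detection call. Of 8 listed CLP genes 6 were tested, and the mutant mean was the lower one for all 6 (median −0.22, and −0.19 without mutant replicate 2), with 0 past the adjusted threshold. The groups did not overlap for 4 of them, with mutants lower. Over all tested genes 57.5% had a lower mutant mean, and 9.99% did not overlap with mutants lower. Among the 4 were the lymphoid factor gene Ikzf1 (−0.45 ± 0.13, SE) and the recombinase gene Rag2 (−0.25 ± 0.15). The part of this shift in the members' values was not tested. Il7r, the receptor gene used in the sort, was at 9.72 to 9.80 in mutants and 9.81 to 10.35 in controls, and Kit was at 6.96 to 7.30 in mutants and 6.96 to 7.41 in controls. The labels' tissue field names stromal cells of the marrow, whereas the sort gate is that of CLPs. Of the 3 tested bone genes, collagen gene Col1a1 was at 5.82 to 6.01 in mutants and 5.86 to 6.08 in controls, alkaline phosphatase gene Alpl at 7.97 to 8.29 in mutants and 7.82 to 8.21 in controls, and osteocalcin gene Bglap at 5.12 to 5.50 in mutants and 5.04 to 5.23 in controls. The groups overlapped for each of them. Genes in the lowest 40% by mean over the 6 arrays (under 4.84) were not tested, which left 13308 genes. Of the 7 measured members 6 were tested. Txk lay just above that limit, with a mean of 4.89, and Trat1 was clearly below it, with a mean of 4.26.

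No member of the CD3 and proximal signalling group differed between mutant and control CLPs past an adjusted p of 0.05 in limma. The mutant mean was below the control mean for 5 of the 6 tested members, Cd3e, Cd3g, Cd3d, Lat and Zap70, and above it for Txk, whose sign turned when arrays were rescaled. Over all tested genes the mutant mean was the lower one for 57.5%. The members' median log2 difference was −0.28, against −0.04 over all 13308 genes, and it became −0.08 on leaving out mutant replicate 2 and −0.05 on leaving out control replicate 3. For each of the 6 the mutant and control values overlapped, where over all tested genes 9.99% did not overlap with mutants lower and 5.4% did not overlap with mutants higher. At an unadjusted p under 0.05, 0 of the 6 members passed, against 6.02% of all genes on the lower side and 2.01% on the higher side. At the adjusted threshold 0% of genes passed. That count of 0 was the same in the unmoderated test, and 1068 genes in limma and 879 in the unmoderated test had an unadjusted p under 0.05. In sorted bulk samples like these, fewer cells of a type and less RNA per cell cannot be told apart.

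**Figure D1:**
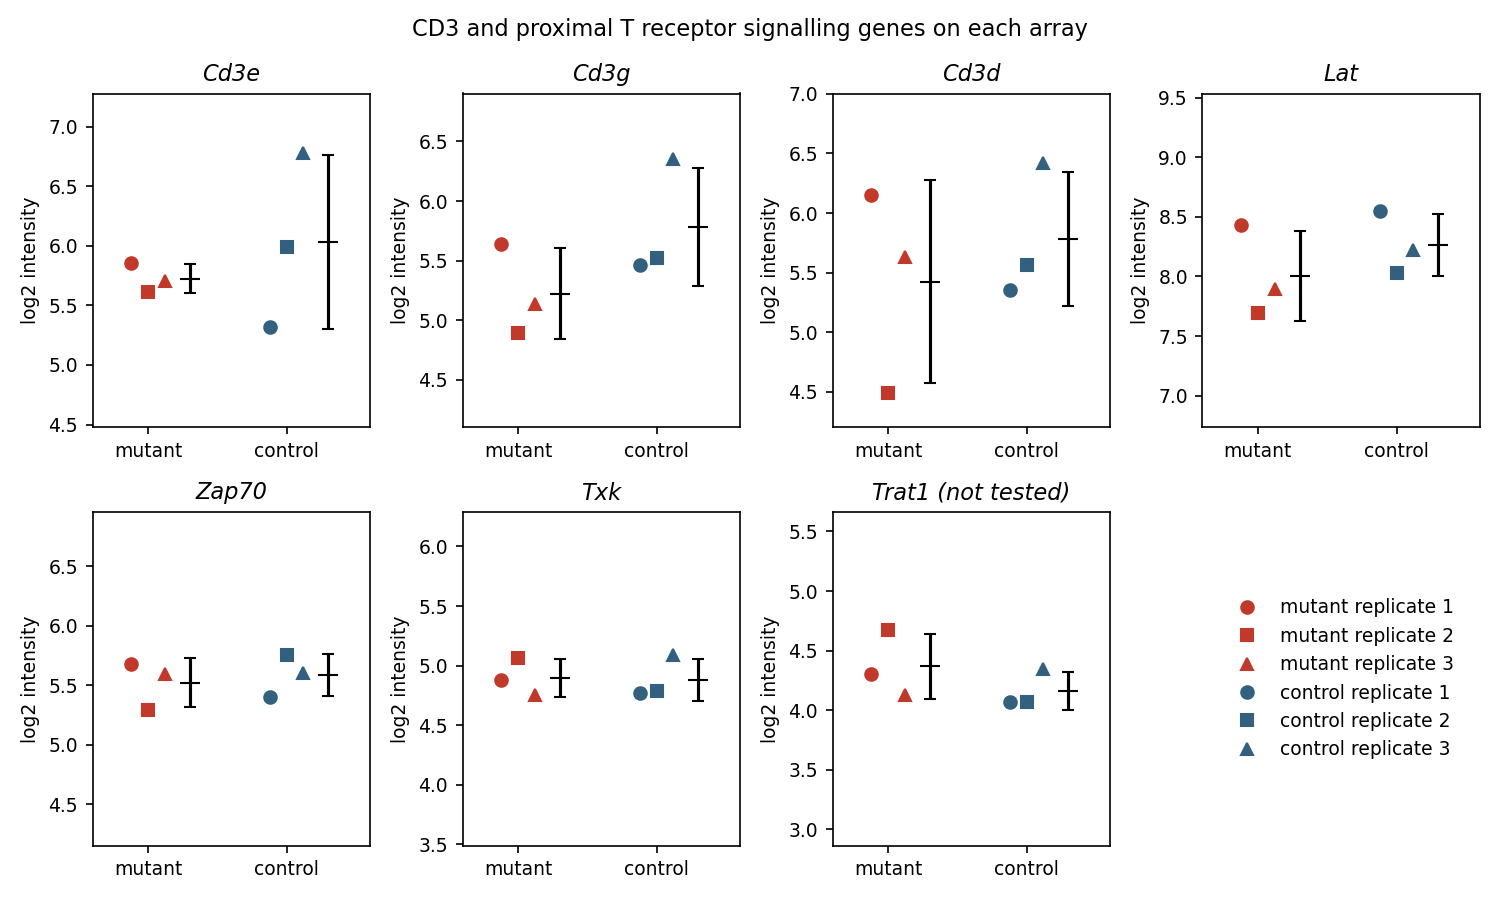
Log2 intensity of the 7 measured members on each of the 6 arrays (y axis, the same span of values in each panel), mutants in red left of controls in blue, with symbols for the replicates and a dash with bars for the mean ± SD of 3 arrays. Cd3e, Cd3g and Cd3d were highest on control replicate 3, Cd3g and Cd3d were lowest on mutant replicate 2, and the groups overlap in every panel.

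Cd3g, whose product pairs with CD3 epsilon in the complex, had the largest difference of the tested members. It was at 5.64, 4.89 and 5.14 in mutant replicates 1, 2 and 3 and at 5.47, 5.52 and 6.35 in control replicates 1, 2 and 3. Mutant replicates 2 and 3 were below all controls, while mutant replicate 1 lay between control replicates 2 and 3. The mutant mean was 5.22 ± 0.38 and the control mean 5.78 ± 0.50 (SD, n = 3 each), a log2 difference of −0.56 ± 0.28 (SE) with a 95% interval of −1.20 to 0.08 and an adjusted p of 0.594 in limma (unadjusted p = 0.0796). Leaving out mutant replicate 2 gave −0.39, and leaving out control replicate 3 gave −0.27. With arrays weighted by their spread it was −0.71 and passed (adjusted p = 0.0366 in limma), a setting under which 2960 of the 13308 genes passed.

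Cd3e encodes the epsilon chain, which forms a pair with either the gamma or the delta chain. Its values were 5.85, 5.62 and 5.70 in mutant replicates 1, 2 and 3 and 5.32, 5.99 and 6.78 in control replicates 1, 2 and 3. The mutants were close together, within 0.24 of each other, and lay inside the controls, which spread over 1.46. The difference was −0.31 ± 0.32 (SE; 95% interval −1.05 to 0.44, adjusted p = 0.72 in limma). Without control replicate 3 it was 0.07, so that array set the sign, and without control replicate 1 it was −0.66.

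Cd3d, the delta chain gene, varied most. It stood at 6.15, 4.49 and 5.63 in mutant replicates 1, 2 and 3, against 5.36, 5.57 and 6.42 in control replicates 1, 2 and 3. Mutant replicate 2 was the lowest array and was below the testing limit of 4.84, while mutant replicates 1 and 3 lay inside the range of the controls. The mutant mean was 5.42 ± 0.85 and the control mean 5.78 ± 0.56 (SD, n = 3 each), a difference of −0.36 ± 0.43 (SE; 95% interval −1.35 to 0.64, adjusted p = 0.752 in limma). Without mutant replicate 2 the difference was 0.11, without mutant replicate 1 it was −0.72, and without control replicate 3 it was −0.04.

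For each CD3 gene the gap between arrays of 1 group exceeded the difference between the groups, with 1.46 among controls for Cd3e, 0.89 among controls for Cd3g and 1.66 among mutants for Cd3d. Their SD over the 6 arrays was 0.50 for Cd3e, 0.50 for Cd3g and 0.68 for Cd3d, where the median SD of all tested genes was 0.19. These SDs exceeded those of 95.5%, 95.7% and 98.5% of tested genes, in the same order. Mutant replicate 2 was the lowest array for Cd3g, Cd3d, Lat and Zap70, 4 of the 6 tested members, and for 35.9% of all tested genes. Control replicate 3 was the highest for Cd3e, Cd3g, Cd3d and Txk, also 4 of the 6, and for 15.4% of all tested genes.

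Lat encodes the adaptor that ZAP70 phosphorylates, and it is also used by mast cells, platelets and natural killer cells. It was at 8.43, 7.69 and 7.90 in mutant replicates 1, 2 and 3 and at 8.55, 8.03 and 8.22 in control replicates 1, 2 and 3. Mutant replicates 2 and 3 were below all controls, and mutant replicate 1 was above 2 of them. The difference was −0.26 ± 0.22 (SE; 95% interval −0.75 to 0.24, adjusted p = 0.662 in limma), −0.10 without mutant replicate 2 and −0.47 without mutant replicate 1. Unlike the CD3 genes, Lat was highest on control replicate 1, and leaving out control replicate 3 left it at −0.28.

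Zap70, the gene of the kinase that docks on phosphorylated CD3 and zeta tails, varied less. It was at 5.68, 5.29 and 5.59 in mutant replicates 1, 2 and 3 and at 5.40, 5.75 and 5.60 in control replicates 1, 2 and 3. The groups covered nearly the same range, with mutant replicate 2 lowest and control replicate 2 highest. The difference was −0.06 ± 0.15 (SE; 95% interval −0.41 to 0.29, adjusted p = 0.878 in limma), and it was 0.05 without mutant replicate 2.

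The Tec family kinase gene Txk was at 4.88, 5.07 and 4.75 in mutant replicates 1, 2 and 3 and at 4.77, 4.78 and 5.09 in control replicates 1, 2 and 3. It was under the testing limit on mutant replicate 3 and control replicates 1 and 2, and 1 array of each group stood above the rest. The difference was 0.02 ± 0.14 (SE; 95% interval −0.31 to 0.35, adjusted p = 0.964 in limma), and it took the other sign without mutant replicate 2 (−0.07). Trat1, the receptor-associated adaptor gene, was not tested. It was under the limit on all 6 arrays, at 4.30, 4.67 and 4.13 in mutant replicates 1, 2 and 3 and at 4.07, 4.07 and 4.34 in control replicates 1, 2 and 3. Mutant replicate 2 was the highest array for Trat1, the opposite of its place for Cd3g and Cd3d.

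**Figure D2:**
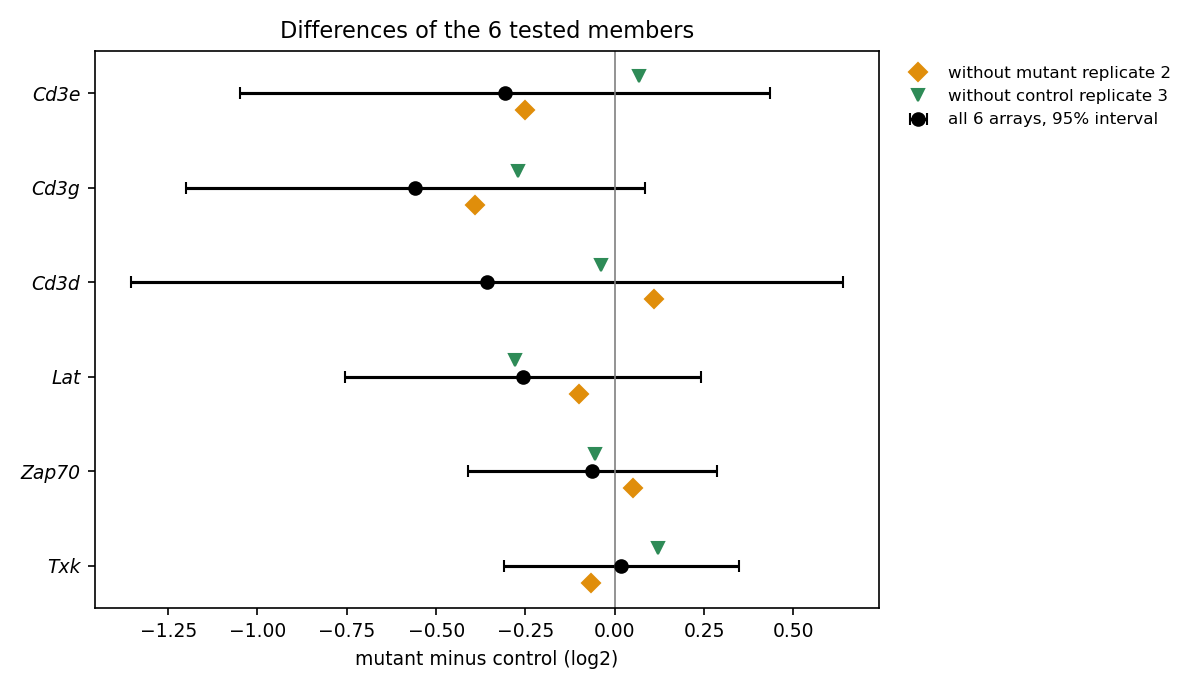
Mutant minus control log2 difference of the 6 tested members (x axis), with limma's 95% interval over all 6 arrays, and the difference without mutant replicate 2 (diamonds) and without control replicate 3 (triangles). Each interval includes 0, Cd3d changes sign without mutant replicate 2, and Cd3e changes sign without control replicate 3.

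The genes with the profile most like that of Cd3d, the tested member with the highest SD, were sought among all tested genes by root mean square distance between profiles centred on their own mean over the 6 arrays. The nearest were the small nucleolar RNA gene Snora68 (distance 0.19), the MHC class I-like gene H2-T10 (0.20), Aasdhppt (0.24), the microtubule-destabilising stathmin gene Stmn1 (0.26) and the splicing kinase gene Clk1 (0.26), where the median distance over 13307 genes was 0.61. Snora68 was at 6.89, 5.02 and 6.40 in mutants and 6.03, 6.29 and 6.64 in controls, and Clk1 at 9.80, 8.18 and 9.30 in mutants and 9.45, 9.55 and 9.70 in controls. These genes were picked for their likeness to Cd3d, so their low value on mutant replicate 2 follows from the choice and is not a separate result. That array also stood apart over all probe sets, and the cause of its low values was not tested. Cd3g ranked 44 by distance from Cd3d (0.32) and Cd3e ranked 1356 (0.45). Lat and Zap70 ranked 2900 and 2918, and Txk ranked 7979. Of the members, Cd3g was therefore the nearest to Cd3d.

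**Figure D3:**
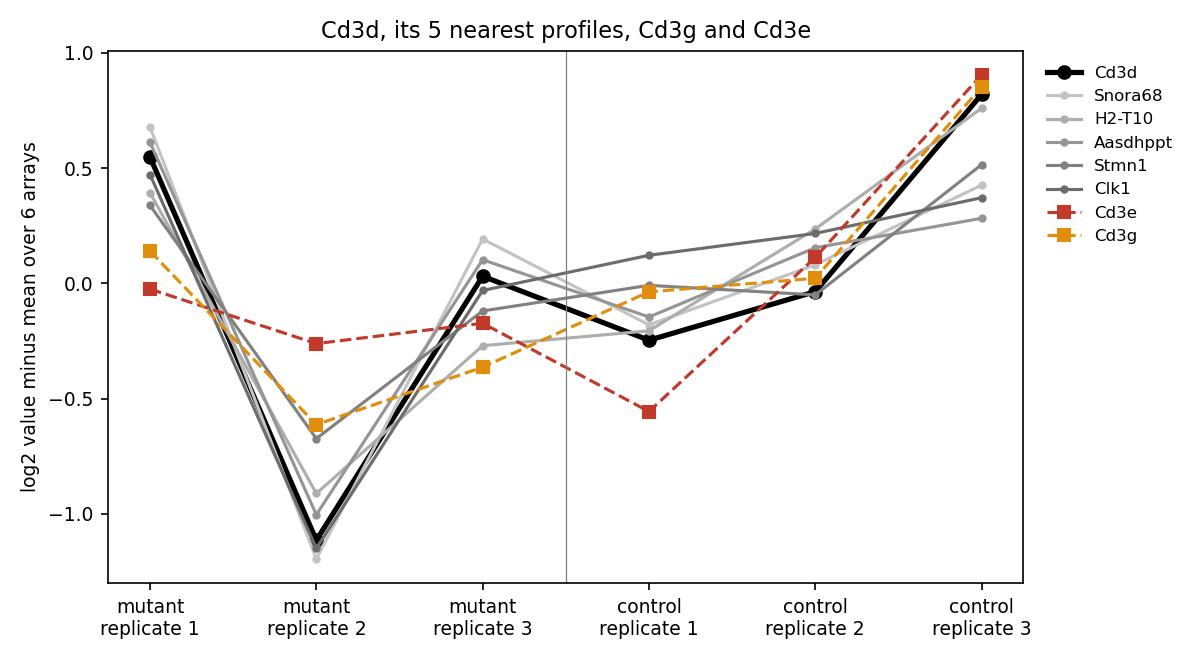
Log2 values minus each gene's mean over the 6 arrays (y axis) for Cd3d (black), its 5 nearest genes (grey), Cd3g (orange) and Cd3e (red), with mutants left of controls. The grey genes were chosen for their likeness to Cd3d and follow it down on mutant replicate 2. Cd3e, Cd3g and Cd3d are high together on control replicate 3. Lines join arrays for reading only.

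The T receptor chains that pair with CD3 could be read only in Ptcra, the pre-T receptor alpha gene, because of 26 listed symbols it alone had a probe set with 1 symbol. Ptcra was at 5.78, 5.88 and 5.60 in mutants and at 5.62, 5.60 and 5.68 in controls (0.12 ± 0.12, SE, adjusted p = 0.7 in limma), a difference of 0.06 without mutant replicate 2 and 0.20 without mutant replicate 3. Mutant replicates 1 and 2 were above all controls, and mutant replicate 3 was inside their range.

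Among kinases, phosphatases and inhibitors of receptor signalling, 15 of 23 tested genes had a lower mutant mean (median −0.14), against 57.5% of all genes. Of the 23, 0 passed the adjusted threshold. The median was −0.05 without mutant replicate 2, −0.05 without mutant replicate 3 and −0.28 without mutant replicate 1. With repeated quantile normalization it was −0.05, and after cyclic loess −0.03. The groups did not overlap for 2 of the 23 with mutants lower and for 1 with mutants higher, against 9.99% and 5.4% of all genes. Ptpn6, the gene of the inhibitory phosphatase SHP-1, was at 8.34, 8.10 and 7.81 in mutants and at 8.50, 8.75 and 8.61 in controls (−0.54 ± 0.16, SE, adjusted p = 0.594). Ptprc encodes CD45, the phosphatase that keeps LCK ready to act, and was at 9.10, 8.68 and 9.06 in mutants and at 9.24, 9.57 and 9.57 in controls (−0.51 ± 0.16, adjusted p = 0.594). These were the 2 lower genes whose groups did not overlap. The higher one was Cd5, an inhibitory surface receptor gene, which was at 6.61, 6.46 and 6.43 in mutants and at 6.18, 6.18 and 6.29 in controls (0.28 ± 0.11, adjusted p = 0.594). Fyn, the Src family kinase gene that can act beside LCK, was at 6.81, 6.31 and 6.20 in mutants and at 6.21, 6.77 and 6.67 in controls, and these values overlapped.

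Among adaptors and downstream signalling genes the mutant mean was lower for 17 of 22 tested genes, against 57.5% of all genes. Again 0 passed. The list's median was −0.20, −0.11 without mutant replicate 2, −0.07 with repeated quantile normalization and −0.06 after cyclic loess. The groups did not overlap for 3 of the 22 with mutants lower and for 0 with mutants higher, where 9.99% and 5.4% of all genes did so. Lcp2, the gene of the SLP-76 adaptor that joins LAT, was at 7.89, 7.27 and 7.63 in mutants and at 7.86, 7.76 and 7.78 in controls (−0.21 ± 0.17, SE, adjusted p = 0.65 in limma). Without mutant replicate 2 its difference was −0.045. Rasgrp1 encodes the Ras activator used below the T receptor. It was at 5.19, 5.14 and 5.14 in mutants and at 5.12, 5.81 and 6.07 in controls, so that control replicate 1 lay below the mutants and the other two controls above them (−0.52 ± 0.23, adjusted p = 0.594). The adaptor gene Skap2 (−0.65 ± 0.24) and Tespa1 (−0.43 ± 0.15), whose product takes part in thymocyte receptor signalling, had groups that did not overlap, with an adjusted p of 0.594 each. Without mutant replicate 2 Skap2 was at −0.38.

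Of 8 tested coreceptor and costimulator genes 6 had a lower mutant mean (median −0.06), against 57.5% of all genes, and 0 passed. The groups did not overlap for 1 with mutants lower and for 1 with mutants higher, against 9.99% and 5.4% of all genes. The higher one was Cd5, given above. The costimulator gene Cd27 was at 6.44, 6.68 and 6.54 in mutants and at 6.85, 6.83 and 6.90 in controls, with no overlap (−0.31 ± 0.12, SE, adjusted p = 0.594 in limma). Cd28 was at −0.27 ± 0.17, and at −0.14 without mutant replicate 2. The median of this list turned to 0.02 without control replicate 3.

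The relatives that use the same signalling logic in B and myeloid cells were measured as well. Syk is the sister kinase of ZAP70, Fcer1g encodes a signalling chain related to zeta, and Blk is the Src family kinase of B cells. The mutant mean was the lower one for all 11 tested genes of this list (median difference −0.24), where 57.5% of all genes had a lower one, and 0 passed. The groups did not overlap for 2 of the 11 with mutants lower and for 0 with mutants higher, against 9.99% and 5.4% of all genes. Syk was at 7.75, 7.99 and 7.18 in mutants and at 7.68, 8.41 and 8.14 in controls (−0.44 ± 0.25, SE, adjusted p = 0.599 in limma), and leaving out mutant replicate 3 gave −0.21, leaving out control replicate 2 −0.27. Fcer1g was at 9.10, 7.37 and 8.25 in mutants and at 9.30, 8.53 and 8.54 in controls (−0.55 ± 0.41, adjusted p = 0.637), and without mutant replicate 2 it was at −0.12. Blk had groups that did not overlap (−0.75 ± 0.20, adjusted p = 0.594), as did the myeloid Src family gene Fgr (−0.24 ± 0.12, adjusted p = 0.594). The B cell receptor chain gene Cd79b was at −0.37 ± 0.20, and at −0.20 without control replicate 2.

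**Figure D4:**
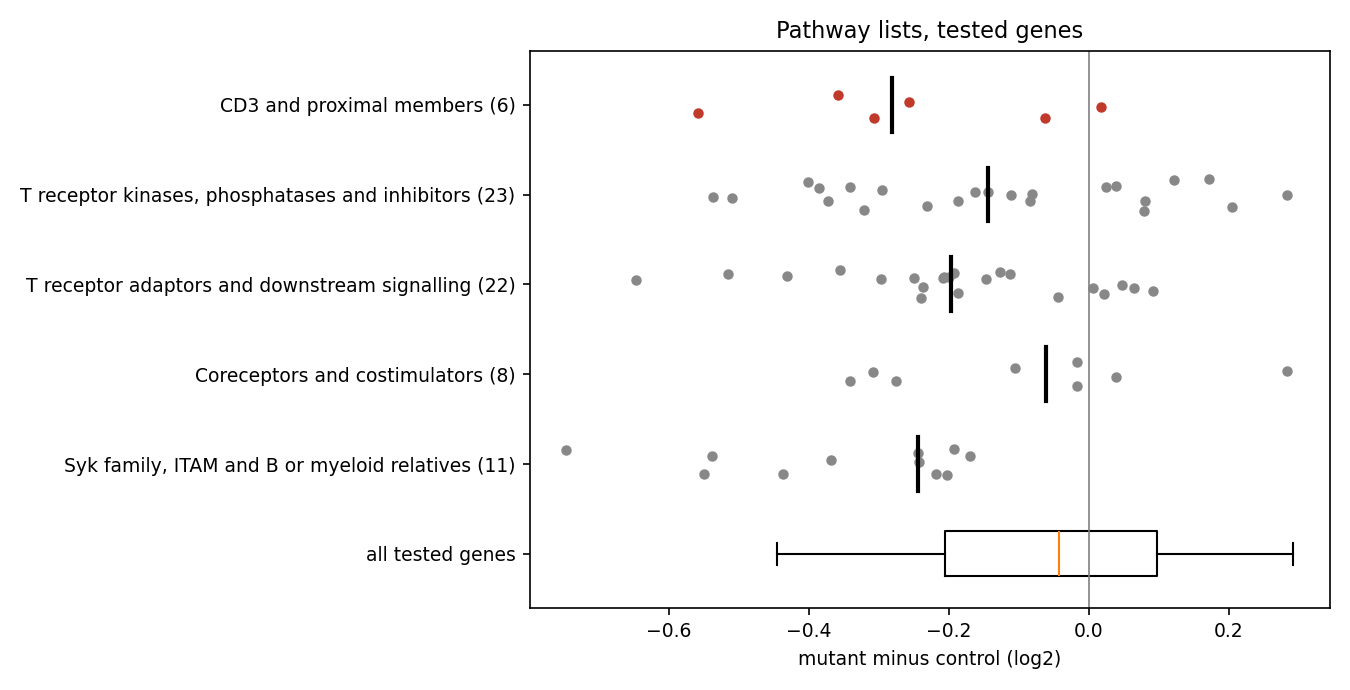
Mutant minus control log2 difference (x axis) of each tested gene in the members' list (red) and in 4 further lists (grey), with a black bar at each list's median and the number of tested genes in brackets. The box for all 13308 tested genes runs from the 25th to the 75th percentile with a line at the median and whiskers at the 5th and 95th percentiles, from −0.45 to 0.29. The medians of the lists lie between −0.28 and −0.06.

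Outside the members, 52 tested genes of the receptor chain, kinase, adaptor and coreceptor lists together had 38 lower mutant means, where 57.5% of all genes had one, with a median of −0.18 and of −0.10 without mutant replicate 2. The groups did not overlap for 6 with mutants lower and for 1 with mutants higher, against 9.99% and 5.4% of all genes, so these counts lie near or under the background. Mutant replicate 2 was the lowest array for 19 of these 52 genes (35.9% of all genes) and mutant replicate 3 for 15 (19.1% of all genes), and control replicate 3 was the highest for 17 (15.4% of all genes).

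Markers of cells that carry CD3 or its signalling genes were followed array by array. Of 12 mature T cell markers 10 had a value, with a summed level (log2 of the summed intensities) of 8.64 to 8.80 in mutants and 8.64 to 8.99 in controls. The median deviation of the 7 tested ones from the control mean was −0.18 on mutant replicate 2 and 0.12 on control replicate 3. Cd8b1, a CD8 chain gene, was at 5.80, 5.13 and 5.31 in mutant replicates 1, 2 and 3 and at 5.05, 5.27 and 6.23 in control replicates 1, 2 and 3. Like Cd3e, Cd3g and Cd3d, it was highest on control replicate 3, as was the untested Cd8a. Of all tested genes 15.4% were highest on that array. Cd28 was nearly level on control replicate 3 (5.91) and mutant replicate 3 (5.90). Other named markers of this list were highest elsewhere, and Foxp3 is not given by array here. Cd4 and the untested Ctla4 were highest on mutant replicate 2, and Cd6 on mutant replicate 3. The untested Cd40lg was highest on mutant replicate 1, and Icos and Il2ra on control replicate 2. Thy1, whose protein was excluded in the sort, was at 6.54 to 6.94 in mutants and at 6.90, 6.75 and 7.31 in control replicates 1, 2 and 3. It was also highest on control replicate 3. Of 15 natural killer markers 13 had a value, with a summed level of 9.28 to 9.85 in mutants and 9.40 to 10.05 in controls, and they did not follow 1 pattern. Klrd1 was lowest on mutant replicate 2 (5.37) and highest on control replicate 3 (6.67), while Prf1 was highest on mutant replicate 2 (5.88) and lowest on control replicate 3 (5.26). The median deviation of the 8 tested natural killer markers from the control mean was −0.06 on mutant replicate 2 and 0.02 on control replicate 3. It was lowest on control replicate 2 (−0.23). The 7 innate lymphoid markers with a value, of 8 listed, summed to 8.67 to 8.86 in mutants and 8.50 to 9.05 in controls. The 10 early T markers with a value, of 11, summed to 10.87 to 11.28 in mutants and 10.94 to 10.95 in controls. RMA values are never 0, so no marker can be called absent. The part of such cells in the CD3 values was not tested.

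Early T lineage markers were evenly divided. Of the 10 tested, 5 had a lower and 5 a higher mutant mean (median −0.05), and 0 passed. Bcl11b, a T lineage commitment factor gene, was at 5.55 to 5.60 in mutants and 5.28 to 5.45 in controls (0.23 ± 0.11, SE, adjusted p = 0.594 in limma). Cd7, an early lymphoid surface gene, was at 5.04 to 5.67 in mutants and 5.74 to 6.11 in controls (−0.62 ± 0.18, adjusted p = 0.594). The groups did not overlap for either gene, nor for Cd5, given above, which was higher in mutants. Of the 10, 1 did not overlap with mutants lower and 2 with mutants higher, against 9.99% and 5.4% of all genes.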

How the data were processed

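Affymetrix arrays of sorted Ly6D-negative CLPs from 3 mutant and 3 control samples were used, grouped and numbered by the sample titles. The deposited values are log2 intensities per probe set from RMA, as the submitters' processing notes name it. The RMA version, the authors' annotation and their build were not given in the sources used here.

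The table held 41345 probe sets. A platform annotation gave 1 symbol to 23521, several to 1814 and none to 16010. For each of 22180 genes the probe set whose 6-array mean was highest was kept, and the dimmest 40% of genes were left untested. The contrast of mutant minus control was fitted with limma 3.58.1 in R 4.3.3 by lmFit and eBayes (2-sided, adjusted by Benjamini-Hochberg over 13308 genes, threshold 0.05). SE denotes limma's standard error. The fit was tested on simulated data. Lists were described by counts and medians, with no set test. Further named genes were the 3 of each list with the lowest p and a few fixed ones. The members and lists were chosen with earlier results of these data known. Alternatives were other filters, probe set rules, variance priors, array weights, an unmoderated test, rescaling, a replicate block and leaving out each array. Depth does not apply to arrays, and 3 per group limit the precision. Figures were drawn with matplotlib 3.10.9.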

Additional observations from a re-analysis of the deposited data

How the results depend on the processing

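No gene passed the adjusted threshold in limma with all 6 arrays, except that array weights gave 2960 genes. On leaving out 1 array the count ran from 0 to 4, with 4 without mutant replicate 1 and 1 without mutant replicate 2. At an unadjusted p under 0.05 the 1068 genes became 5087 with array weights, 1748 without a filter, 2923 without mutant replicate 1, 656 without mutant replicate 3, 343 without control replicate 2 and 409 without control replicate 3. Among members, Cd3g passed with array weights (−0.71, adjusted p = 0.0366 in limma; over its alternatives 0.0366 to 0.886), where mutant replicate 3 had a weight of 5.20 and mutant replicate 2 one of 0.21. The other tested members passed in none of the alternatives run. With array weights 10 of the members and named pathway and relative genes passed: Cd3g, Ptprc, Ptpn6, Skap2, Rasgrp1, Tespa1, Cd27, Syk, Blk and Cd79b. Over all tested genes 2960 of 13308 passed in that setting. Most of the named genes had been picked for the lowest p of their list in these data. Their passing therefore follows in part from the choice and is not a separate result. The members' median ran from −0.42 to −0.05 on leaving out 1 array.

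Signs turned as follows, and the cause was not tested. On leaving out 1 array Cd3e ran from −0.66 to 0.069, Cd3d from −0.72 to 0.11, Zap70 from −0.15 to 0.051, Txk from −0.067 to 0.12 and Fyn from −0.30 to 0.0093. Txk was at −0.14 with array weights, −0.046 with repeated quantile normalization, −0.044 with arrays centred on their medians and −0.069 after cyclic loess. With array weights Ptcra was at −0.016 and Cd28 at 0.010. Cd3g and Lat had a lower mutant mean in each alternative run. The lists of kinases and of adaptors had medians of −0.03 and −0.06 after cyclic loess.

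The replicate number as a block (replicate block) also gave 0 genes, with 1062 at an unadjusted p under 0.05. With the block the SE of Cd3d went from 0.43 to 0.32 and that of Lat from 0.22 to 0.14, while those of Zap70 and Txk rose to 0.17. Deviations of same-numbered mutant and control arrays correlated at 0.13, 0.20 and −0.13 for numbers 1, 2 and 3 across genes. Mutant replicates 1 and 2 matched the control of their own number best and mutant replicate 3 did not. Deviations within a group of 3 arrays sum to 0, so these 3 correlations depend on each other and cannot decide whether numbers pair samples. The main fit was unpaired.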
